A study of Mus musculus with 6 samples.

Results

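Open chromatin peaks that lie inside introns and were present at every oxygen level were examined in GL261 cells, a mouse glioblastoma line, after normoxia (21% O2), moderate hypoxia (1% O2) or severe hypoxia (<0.1% O2). ATACseq marks open chromatin by where the Tn5 transposase can insert adapters into DNA. The peaks were chosen by measured values, namely whether a peak was called in the libraries. A stretch shared by both replicate peak lists over more than 200 bp was kept for each condition, and the stretches of the 3 conditions were merged into 41308 consensus peaks. Of these, 28197 held a stretch from all 3 conditions. The intronic peaks are the 6778 of them that lay more than 2000 bp from any annotated start site, overlapped no exon and lay within a gene body (GENCODE M21 basic, mouse build mm10). They made up 16.4% of all consensus peaks and 24.0% of those shared by all 3 conditions. Because presence at every oxygen level was required, none of them can appear or disappear with hypoxia, and what remains to be described is where they lie, what their sequences hold and how tall they are in each library.

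Introns hold many of the distal regulatory elements of a genome, among them enhancers, which bind transcription factors and can act on a start site far away. Open chromatin at such elements usually depends on the factors bound there, whereas the open state of most promoters goes with CpG-rich sequence and the general transcription machinery. AP-1, a dimer of Jun, Fos and ATF proteins that responds to growth factors and stress, binds the site TGANTCA and is a common factor at distal elements of cultured cells. In hypoxia the transcription factor HIF escapes destruction, which the oxygen-dependent prolyl hydroxylases of the Egln family otherwise bring about, and binds sites with the core ACGTG or GCGTG.

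All 6 libraries came from 1 cell line that stably carries the pEGFP-N1 plasmid, with 2 libraries at 21% O2, 2 at 1% O2 and 2 at <0.1% O2. The labels give an exposure of 16 h for the hypoxic libraries, and per the study's methods the cells were fixed with formaldehyde before lysis so that no reoxygenation could alter the chromatin. No animal or tissue was sampled, so the values describe this line in culture. Nothing in the labels says that replicates were separate cultures. The errors and p-values below rest on the spread between the 2 libraries of a condition, which may be technical. They pool this spread over the conditions and borrow from the other peaks tested, so a peak has the same error in every comparison. As a check of the cell type, 10 of 13 glial and glioma marker genes had a promoter peak and 9 had one in all 3 conditions, while *Sox9*, *Nfia* and *Egfr* had none. Of 12 markers of immune, endothelial, epithelial and neuronal cells, 1 (*Pecam1*) had a promoter peak, and none had one in all 3 conditions.

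The libraries held from 33006 to 43554 peaks. The height of a peak is given here as the summit pileup, the number of sequenced fragments over its highest base, which was recovered from the deposited values and was a whole number within 0.05 for 100% of peaks. Genome coverage ran from 2.16 to 3.35 fragments and was lower in both normoxic libraries than in the 4 hypoxic ones. It was taken as the lowest background that the peak caller used at any peak of a library. The median pileup of the intronic peaks was 47 and 62 at 21% O2, then 86 and 80 at 1% O2, then 91 and 75 at <0.1% O2. Counting error at these medians was 0.15 to 0.21 on the log2 scale, and it covers counting only. To compare libraries, log2 pileups were centred on the median of the 28432 consensus peaks present in all 6 libraries, called ranked peaks here. All 6778 intronic peaks were among them. The SD between replicates was then 0.18 on the log2 scale over the intronic peaks.

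Short stretches of sequence from the intronic peaks are shown next, most of them chosen for their AP-1 sites. The first 6 come from peaks with a protein-coding host and 2 or more TGANTCA sites within 50 bp of the summit. Only peaks called higher at <0.1% O2 by the rule given below, with libraries that did not overlap, were considered. Not every chromosome was covered by this choice. Of the 61 host genes with such a peak, the 6 with the largest rises at <0.1% O2 are shown first. They were picked after their values were seen. They are followed by the leading rises *Zfat* and *Ahdc1*, the leading fall *App*, and *Cnot2*, which is shown as the only one of the 6 leading falls described below with an AP-1 site in such a stretch. Of the 6 leading rises *Zfat* alone holds one. Each reaches 50 bases to either side of the summit on the forward strand of mm10, with TGANTCA in capitals. The positions are chr7:125899177-125899277 for *Gsg1l*, chr8:57589336-57589436 for *Galnt7*, chr14:20155138-20155238 for *Kcnk5*, chr2:31042994-31043094 for *Fnbp1*, chr14:34297288-34297388 for *Shld2*, chr5:32930925-32931025 for *Depdc5*, chr15:68108478-68108578 for *Zfat*, chr4:133025392-133025492 for *Ahdc1*, chr16:85116055-85116155 for *App* and chr10:116513319-116513419 for *Cnot2*.
Gsg1l: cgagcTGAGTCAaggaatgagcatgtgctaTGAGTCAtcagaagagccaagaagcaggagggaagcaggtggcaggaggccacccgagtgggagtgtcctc
Galnt7: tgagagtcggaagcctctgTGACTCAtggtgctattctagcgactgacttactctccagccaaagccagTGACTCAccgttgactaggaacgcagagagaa
Kcnk5: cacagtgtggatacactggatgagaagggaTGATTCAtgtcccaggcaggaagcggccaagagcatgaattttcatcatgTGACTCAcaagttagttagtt
Fnbp1: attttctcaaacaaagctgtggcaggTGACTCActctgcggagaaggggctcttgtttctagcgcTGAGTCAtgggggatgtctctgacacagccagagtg
Shld2: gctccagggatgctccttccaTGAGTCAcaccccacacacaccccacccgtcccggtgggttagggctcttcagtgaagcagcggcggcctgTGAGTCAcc
Depdc5: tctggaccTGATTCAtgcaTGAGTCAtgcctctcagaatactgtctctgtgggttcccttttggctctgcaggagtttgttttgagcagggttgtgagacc
Zfat: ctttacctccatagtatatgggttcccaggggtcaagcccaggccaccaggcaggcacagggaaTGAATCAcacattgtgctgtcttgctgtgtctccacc
Ahdc1: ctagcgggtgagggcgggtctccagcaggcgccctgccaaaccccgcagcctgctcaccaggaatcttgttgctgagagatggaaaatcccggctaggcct
App: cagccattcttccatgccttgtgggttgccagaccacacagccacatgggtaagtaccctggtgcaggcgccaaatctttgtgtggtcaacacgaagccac
Cnot2: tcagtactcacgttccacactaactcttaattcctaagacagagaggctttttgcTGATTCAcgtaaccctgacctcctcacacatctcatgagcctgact

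The intronic peaks were poorer in GC and CpG than the peaks at promoters. Their median width was 694 bp, their median GC content 48.3% and their median CpG density 1.26 per 100 bp, whereas promoter peaks shared by all 3 conditions had a median GC content of 59.5% and 6.19 CpG per 100 bp. Intergenic peaks within 50 kb of a start site were close to them, at 49.1% GC and 1.51 CpG per 100 bp. Repeat-masked sequence made up a median of 9.46% of an intronic peak. Intronic peaks were less often shared by all conditions than promoter peaks, since 57.9% of the 11702 intronic consensus peaks held a stretch from all 3 conditions, against 85.7% of promoter consensus peaks and 57.4% of intergenic ones.

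Many of the intronic peaks lay far from any promoter. Their median distance to the nearest start site was 16.4 kb, the quartiles were 7.68 and 34.2 kb, and the farthest was 507.7 kb away. First introns held 2196 of them (32.4%) and second introns 19.5%, and the median length of the intron around a peak was 28.0 kb. They lay in 3548 host genes, of which 3025 were protein coding, and 6021 peaks (88.8%) had a protein-coding host. A further description by gene is limited by overlapping genes, since 330 peaks (4.87%) lay in more than 1 host gene. A host is only where a peak lies, and the gene it may act on was not measured.

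At the 2000 bp limit, the 3 nearest intronic peaks kept were 2004, 2010 and 2013 bp from a start site, at chr15:85655620-85656244, chr16:32110875-32111598 and chr7:144569368-144569960. Their pileups in the first normoxic library were 122, 37 and 66. The 3 nearest peaks left out were 1999, 1996 and 1990 bp away, at chr18:60729562-60730313, chr5:92390139-92391205 and chr9:103474074-103474705, with 149, 80 and 33 in the same library.

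In normoxia the intronic peaks were much lower than promoter peaks, and this gap narrowed with hypoxia. Their median centred log2 pileup was -0.38 and -0.37 at 21% O2, then -0.33 and -0.29 at 1% O2, then -0.12 and -0.13 at <0.1% O2. Both libraries at <0.1% O2 lay above the 4 others, and those at 1% O2 lay above those at 21% O2. Promoter peaks moved the other way, with medians of 0.51 and 0.55, then 0.43 and 0.42, and then 0.25 and 0.29. The difference between intronic and promoter medians was therefore -0.89 and -0.92 at 21% O2, then -0.76 and -0.71 at 1% O2, then -0.37 and -0.42 at <0.1% O2, and replicates differed in it by at most 0.052. An exact permutation test of 2 libraries against 2 cannot give a p below 0.333, and all contrasts of this value between conditions stood at that limit. Intergenic peaks had medians from -0.54 to -0.31 and also ended higher at <0.1% O2, so a smaller gap to promoters was not particular to introns. All of these values are medians of height over a set of peaks. Peak by peak, the median change from 21% to 1% O2 was -0.01 for intronic and -0.07 for promoter peaks. The typical intronic peak thus did not rise at 1% O2.

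**Figure D1:**
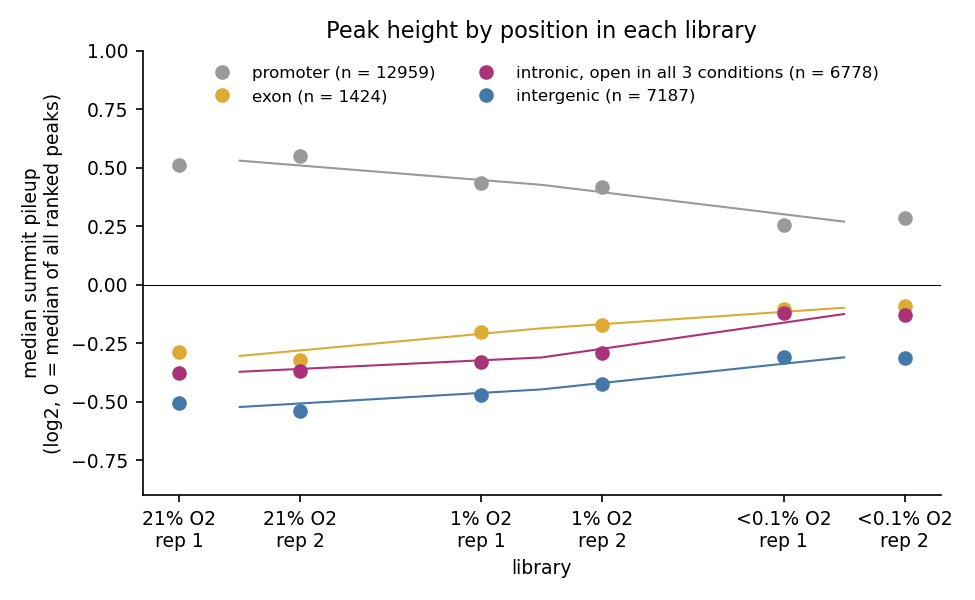
Median centred log2 summit pileup (vertical axis, log2 units relative to the median ranked peak of each library) of intronic, promoter, exon and intergenic ranked peaks, with 1 point for each of the 6 libraries and lines joining the condition means. Intronic peaks run from -0.38 to -0.12 and promoter peaks from 0.55 to 0.25, so the sets approach each other at <0.1% O2.

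GC content moved with this gap. With the trend of log2 pileup on GC content removed in each library, the intronic medians less the promoter medians were -0.30 and -0.31 at 21% O2, then -0.15 and -0.16 at 1% O2, then -0.11 and -0.15 at <0.1% O2. The gap was then narrower in normoxia, and it still narrowed from 21% to 1% O2 in both libraries. Among the intronic peaks, the quartile with the lowest GC content had a median log2 change of -0.15 at 1% O2 and 0.27 at <0.1% O2, and the quartile with the highest had 0.16 and 0.15. Against 1% O2, the change at <0.1% O2 went from 0.39 in the lowest GC quartile to 0.01 in the highest. Whether the GC trend is technical was not tested.

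Changes of single peaks were tested with limma on the centred log2 pileups of all 28432 ranked peaks, with Benjamini-Hochberg adjustment over all of them. A peak was called where the adjusted p was under 0.05 and the log2 change at least 0.6. At <0.1% O2, 1425 intronic peaks (21.0%) were higher and 335 (4.94%) lower than at 21% O2, where 12.7% of all ranked peaks were higher and 11.8% lower. The median log2 change of the intronic peaks was 0.18, the quartiles were -0.13 and 0.53, and 64.8% of them had a value above 0. Promoter peaks had 587 higher and 2523 lower of 12959, with a median of -0.19. Intergenic peaks had 1327 higher and 416 lower of 7187, with a median of 0.15, close to the intronic value.

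At 1% O2 the intronic peaks moved in both directions in nearly equal numbers. Against 21% O2, 763 (11.3%) were higher and 743 (10.96%) lower, where 7.86% of all ranked peaks were higher and 8.79% lower, and the median change was -0.01. Both shares were above those of all ranked peaks. Between the hypoxic levels, 733 intronic peaks (10.8%) were higher at <0.1% O2 than at 1% O2 and 58 (0.856%) lower, where 5.86% of all ranked peaks were higher and 2.74% lower. The median change was 0.19. Without the first <0.1% O2 library the higher count was 487, and without the first 1% O2 library the lower count was 32. All 3 comparisons share libraries with each other, so their counts are not separate evidence. At an unadjusted p under 0.05, 3282, 3547 and 2553 intronic peaks differed at 1% O2, at <0.1% O2 and between these levels. These counts join both directions. The share of all ranked peaks at this threshold was not computed, so they say nothing particular to introns.

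**Figure D2:**
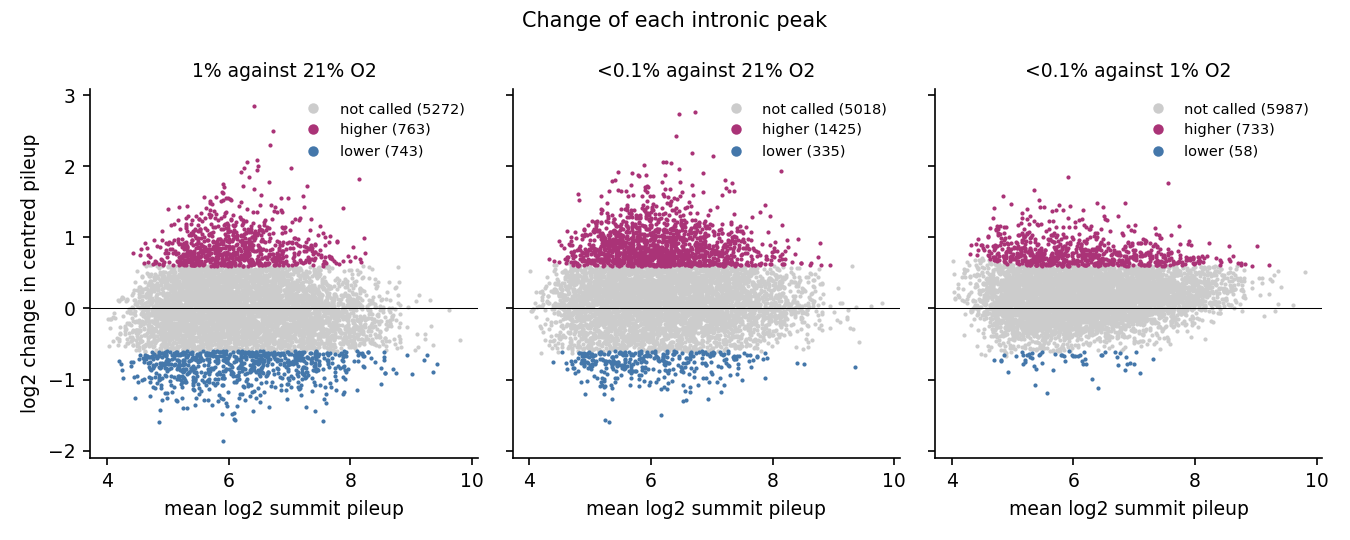
Log2 change in centred summit pileup (vertical axis) against mean log2 summit pileup over the 6 libraries (horizontal axis) for each of the 6778 intronic peaks, 1 panel per comparison, with called peaks colored. Higher and lower calls number 763 and 743 at 1% against 21% O2, 1425 and 335 at <0.1% against 21% O2, and 733 and 58 at <0.1% against 1% O2, and they occur over the whole range of heights.

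The split between higher and lower calls depended on scaling. With the GC trend removed, 930 intronic peaks were higher and 667 lower at <0.1% O2, where all ranked peaks had 10.8% higher and 10.5% lower, and the median change was 0.03. At 1% O2 these counts were 783 and 694, against 8.19% and 8.17% of all ranked peaks. Between the hypoxic levels they were 209 and 82, against 1.91% and 1.29%. Scaled to genome coverage in place of the median peak, the median of all ranked peaks shifted by 0.13 at 1% O2, by -0.16 at <0.1% O2 and by -0.31 between these levels. The intronic calls were then 1186 higher and 361 lower at 1% O2 (all ranked peaks 13.4% and 3.93%), 884 and 668 at <0.1% O2 (7.85% and 19.2%), and 130 and 458 between the hypoxic levels (1.06% and 18.2%). Coverage scaling moves all peaks of a library alike, so it cannot change the intronic median relative to that of all ranked peaks, which was 0.021, 0.18 and 0.17 higher in these comparisons. With the GC trend removed it was 0.017, 0.036 and 0.021 higher.

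Measured as fold over the local background, fewer peaks changed. The local background is the level that the peak caller expected around each summit, from the same library. On this scale 184 intronic peaks were higher and 128 lower at 1% O2, where all ranked peaks had 1.79% and 1.32%. At <0.1% O2, 284 were higher and 75 lower, against 2.49% and 2.19%, and the median change was 0.06. Between the hypoxic levels 24 were higher and 2 lower, against 0.158% and 0.243%.

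The leading changes below are the largest called ones among peaks with a protein-coding host, 1 for each gene. The leading rises at <0.1% O2 were at peaks that were low in normoxia. The peak in intron 13 of *Zfat*, a zinc finger and AT-hook protein gene (chr15:68108129-68109220), had a pileup of 23 and 28 at 21% O2, then 196 and 228 at 1% O2, then 219 and 225 at <0.1% O2. All 4 hypoxic libraries lay far above both normoxic ones, and no difference between the hypoxic levels was called. Its log2 change was 2.76 ± 0.14 (SE, n = 2 per condition) at <0.1% O2 (limma adjusted p = 5.1e-17) and 2.50 ± 0.14 at 1% O2. The peak in intron 2 of *Ahdc1*, which encodes an AT-hook DNA-binding protein (chr4:133024917-133025704), had 18 and 23 at 21% O2, then 213 and 219 at 1% O2, then 141 and 142 at <0.1% O2. It was thus higher in raw pileup at 1% than at <0.1% O2. Its log2 change was 2.43 ± 0.15 at <0.1% O2 and 2.85 ± 0.15 at 1% O2, and the difference between the hypoxic levels (-0.42, adjusted p = 0.041) was short of the minimum change.

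The other 4 leading rises had the same shape, low in normoxia and about equal at both levels of hypoxia. The *Arhgef10* peak in intron 1 (a guanine nucleotide exchange factor gene, chr8:14916500-14917404) had pileups of 22 and 39 at 21% O2, then 234 and 194 at 1% O2, then 193 and 154 at <0.1% O2 (log2 change 2.19 ± 0.15). The *Rassf3* peak in intron 1 (of the Ras association domain family, chr10:121419950-121420588) had 33 and 50, then 251 and 220, and then 267 and 202 (2.15 ± 0.13). In both genes the lowest hypoxic library had over 3 times the pileup of the highest normoxic one. The *Cmip* peak in intron 5 (an adaptor protein gene, chr8:117420835-117421391) had 28 and 21, then 146 and 136, and then 144 and 118 (2.06 ± 0.18). The *Ip6k3* peak in intron 1 (an inositol hexakisphosphate kinase gene, chr17:27160753-27161550) had 20 and 28, then 126 and 138, and then 144 and 112 (2.06 ± 0.16). None of these 4 was called between the hypoxic levels. *Lrmp*, which encodes a membrane protein of the endoplasmic reticulum, was also among the leading rises at 1% O2, with 25 and 29 at 21% O2, then 164 and 166 at 1% O2, then 130 and 96 at <0.1% O2 in intron 18 (chr6:145173815-145174293, 2.06 ± 0.16 at 1% O2).

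The leading falls at <0.1% O2 were smaller than the rises. The *App* peak in intron 2 (the amyloid precursor protein gene, chr16:85115943-85116342) had pileups of 60 and 69 at 21% O2, then 35 and 37 at 1% O2, then 30 and 25 at <0.1% O2. The raw pileup fell although the hypoxic libraries were deeper, and the centred log2 change was -1.60 ± 0.21 (SE, n = 2 per condition, limma adjusted p = 1.2e-07). The *Fndc3b* peak in intron 3 (a fibronectin type III domain gene, chr3:27593721-27594276) had 53 and 70, then 37 and 31, and then 37 and 19 (-1.57 ± 0.23). The *Rsrc1* peak in intron 3 (whose product takes part in splicing, chr3:67027969-67030095) had 103 and 90, then 85 and 88, and then 54 and 36 (-1.49 ± 0.18). *Rsrc1* was called lower at <0.1% O2 than at 1% O2 as well, by -0.78 ± 0.18 (adjusted p = 0.0015).

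The other 3 leading falls were in genes of DNA methylation, adhesion and RNA turnover. The *Dnmt3a* peak in intron 4 (a de novo DNA methyltransferase gene, chr12:3870868-3871990) had pileups of 98 and 168 at 21% O2, then 98 and 86 at 1% O2, then 71 and 64 at <0.1% O2 (-1.30 ± 0.15). The *Fat1* peak in intron 1, in an atypical cadherin gene, had 111 and 136, then 124 and 96, and then 71 and 60 (-1.28 ± 0.14). Between the hypoxic levels the *Fat1* change was -0.55 ± 0.14 (adjusted p = 0.0045), short of the minimum change. This peak (chr8:44937927-44938721) lay 2480 bp from a start site and had a GC content of 69.7%. The *Cnot2* peak in intron 3 (a subunit of the CCR4-NOT deadenylase, chr10:116512942-116513767) had centred log2 pileups of 1.30 and 1.33, then 0.18 and 0.17, and then 0.25 and -0.17 (-1.27 ± 0.13). The *Cnot2* call was lost on the scale of fold over local background (-0.42).

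A second pattern, on the centred scale, was a fall at 1% O2 with about normoxic height at <0.1% O2. The *Rb1* peak in intron 17 (the retinoblastoma tumor suppressor gene, chr14:73234554-73235223) had pileups of 70 and 81 at 21% O2, then 32 and 29 at 1% O2, then 119 and 77 at <0.1% O2. Its log2 change was -1.86 ± 0.18 at 1% O2 (adjusted p = 4e-10), -0.02 ± 0.18 at <0.1% O2 and 1.84 ± 0.18 between the hypoxic levels. The *Mid1* peak in intron 1 (a microtubule-associated ubiquitin ligase gene on the X chromosome, chrX:169860907-169861725) had centred log2 pileups of 1.70 and 1.49, then -0.03 and 0.04, and then 1.87 and 1.67. The changes were -1.58 ± 0.11 at 1% O2, 0.18 ± 0.11 at <0.1% O2 and 1.76 ± 0.11 between them, of which the last was not called as fold over local background (0.53). Both genes were thus low in the 1% O2 libraries alone, and neither was called at <0.1% O2 against 21% O2. With the GC trend removed the changes at <0.1% O2 were -0.31 for *Rb1* and -0.13 for *Mid1*.

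The other leading falls at 1% O2 had this shape too. The *Shroom2* peak in intron 1 (an actin-binding protein gene on the X chromosome, chrX:152764058-152764532) had pileups of 30 and 38, then 16 and 17, and then 53 and 35 (-1.59 ± 0.24 at 1% O2). The *Nfkb1* peak in intron 1 (which encodes the p105 and p50 subunits of NF-κB, chr3:135670750-135671331) had 74 and 99, then 48 and 38, and then 114 and 69 (-1.56 ± 0.17 at 1% O2). The change at <0.1% O2 was -0.02 ± 0.24 for *Shroom2* and -0.32 ± 0.17 for *Nfkb1*, and neither passed the test. With the GC trend removed these changes were -0.25 and -0.52. The *Med13* peak in intron 8 (chr11:86324239-86324799), in a gene of the Mediator kinase module, differed from them in being raised at <0.1% O2 alone, with 18 and 25, then 34 and 34, and then 116 and 77 (1.67 ± 0.21 between the hypoxic levels).

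Few intronic peaks were lower at <0.1% O2 than at 1% O2, and the leading ones were not called as fold over local background. The *Tmem267* peak in intron 1 (a transmembrane protein gene, chr13:119601472-119603348) had pileups of 27 and 36 at 21% O2, then 92 and 97 at 1% O2, then 53 and 25 at <0.1% O2 (-1.18 ± 0.22 between the hypoxic levels). The *Rab11fip4* peak in intron 3 (a Rab11 effector gene, chr11:79660340-79661152) had 30 and 38, then 82 and 61, and then 33 and 26 (-1.08 ± 0.21). The *Ston2* peak in intron 1 (an endocytic adaptor gene, chr12:91778510-91779255) had 66 and 79, then 133 and 116, and then 59 and 51 (-0.99 ± 0.15). Of the 3, *Tmem267* was also called at 1% against 21% O2 (1.04 ± 0.22) and the others were not. *Ston2* was called lower at <0.1% against 21% O2 (-0.76 ± 0.15), a value of -0.31 with the GC trend removed. As fold over local background the changes between the hypoxic levels were -0.90, -0.64 and -0.76 and none was called.

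**Figure D3:**
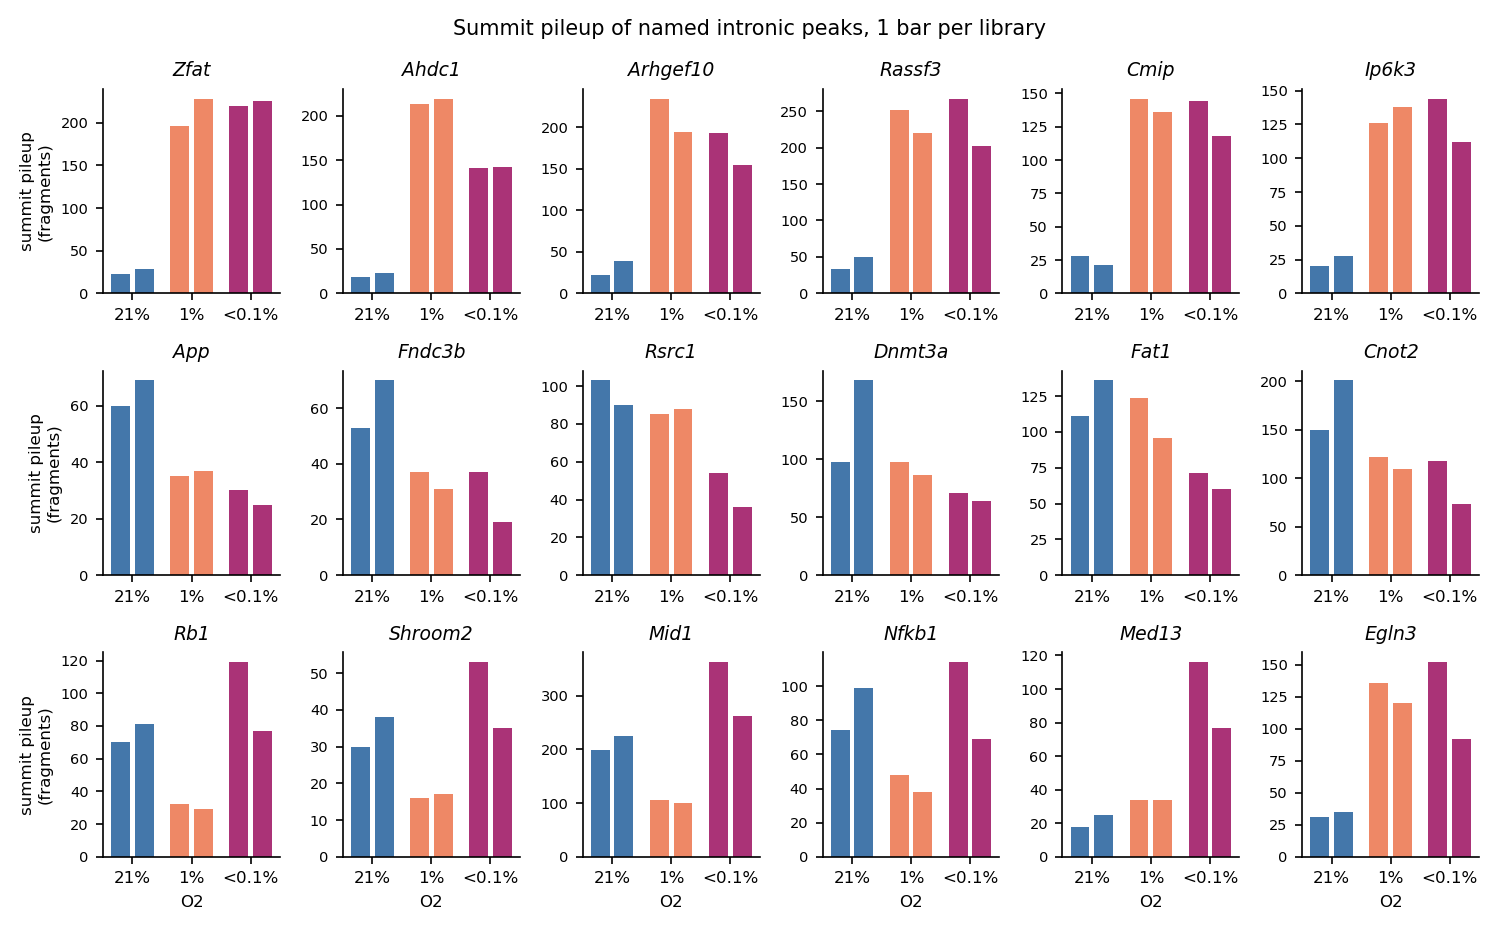
Summit pileup (vertical axes, fragments, each starting at 0) of 18 named intronic peaks, 1 bar per library ordered by O2 level. The top row holds the 6 leading rises at <0.1% O2, the middle row the 6 leading falls, and the bottom row *Rb1*, *Shroom2*, *Mid1* and *Nfkb1*, which are lowest in the 1% O2 libraries, with *Med13* and *Egln3*.

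Of the 6 tallest intronic peaks, counting 1 for each protein-coding host gene, none was called at <0.1% against 21% O2, and *Pdzd2* (-0.78 ± 0.09) and *Ppm1h* (-0.66 ± 0.09) were called lower at 1% O2, which as fold over local background were -0.13 and -0.08. A second tall peak in *Gm20388* (chr8:123433733-123434413), outside that count and named after its values were seen, was called lower at both levels (-0.89 ± 0.10 at 1% O2 and -0.83 ± 0.10 at <0.1% O2). The highest of the 6 was a peak in the long gene model *Gm20388* (chr8:123426071-123427526), with 554 and 720 at 21% O2, then 960 and 883 at 1% O2, then 944 and 743 at <0.1% O2. Its change at <0.1% O2 was 0.04 ± 0.09 and its sign was negative with the GC trend removed, with fold, with quantile normalization and with coverage scaling. The peaks in *Pdzd2* (intron 1, a multi-PDZ domain gene, 686 and 793 at 21% O2, 732 and 639 at <0.1% O2), *Tspan14* (intron 1, a tetraspanin gene, 496 and 690, then 661 and 582) and *Myo5b* (intron 1, an unconventional myosin gene, 455 and 638, then 710 and 664) had changes of -0.48 ± 0.09, -0.28 ± 0.09 and -0.02 ± 0.09. As fold over local background each of these had a value above 0. *Ppm1h*, a protein phosphatase gene with 515 and 738 at 21% O2 and 722 and 598 at <0.1% O2 in intron 5, had -0.28 ± 0.09 and likewise a value above 0 as fold. *Timp2*, an inhibitor of matrix metalloproteinases, differed in direction, with 371 and 505 at 21% O2 and 893 and 800 at <0.1% O2 in intron 1 (0.60 ± 0.09), just short of the minimum change. With the GC trend removed *Timp2* (0.66) and *Pdzd2* (-0.64) were called at <0.1% O2, and *Timp2* was also called without the second 21% O2 library (0.63) or the first <0.1% O2 library (0.65).

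Height and change were related only loosely. With the intronic peaks divided into 4 groups of equal number by mean height, the lowest had a median pileup of 24 to 42 across libraries and the tallest 123 to 226. At <0.1% O2, 302 of 1695 were higher and 113 lower in the lowest group, 451 and 83 of 1694 in the next, 438 and 83 of 1694 in the one above it, and 234 and 56 of 1695 in the tallest. The median change was above 0 in each, from 0.12 in the tallest to 0.25 in the middle groups. Calls at 1% O2 were more often lower than higher in the lowest (213 against 145) and tallest groups (199 against 106), and more often higher than lower in the groups between. By distance, the median change at <0.1% O2 was 0.20 for the 948 peaks within 5 kb of a start site, 0.21 for the 2948 from 5 to 20 kb, 0.17 for the 1877 from 20 to 50 kb and 0.16 for the 1005 farther away. First introns (0.17) and later introns (0.19) had nearly the same median. At 1% O2 the medians ran from 0.04 within 5 kb to -0.08 beyond 50 kb, and between the hypoxic levels from 0.16 to 0.24. With the GC trend removed they ran from 0.10 to -0.04 at <0.1% O2, from 0.04 to -0.04 at 1% O2 and from 0.03 to 0.01 between the hypoxic levels, so the last no longer rose with distance.

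AP-1 sites were found near the summits of many intronic peaks. Within 100 bases on either side of the summit, 2195 of 6778 (32.4%) held TGANTCA, searched on both strands, and 379 held 2 or more. The share was 5.72% in windows of the same length 1000 bp from the summits and 7.03% at promoter peaks. Intergenic peaks held it in 28.3% within 50 kb of a start site and 31.6% farther away, and intronic peaks not present in all conditions in 32.5%, so its frequency was about the same at intronic peaks that were missing from some condition. In bins of 20 bases the share with a site centred there was 5.92% beside the summit and 0.65% at 490 bases from it. A match is a description of the sequence, and binding was not measured.

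**Figure D4:**
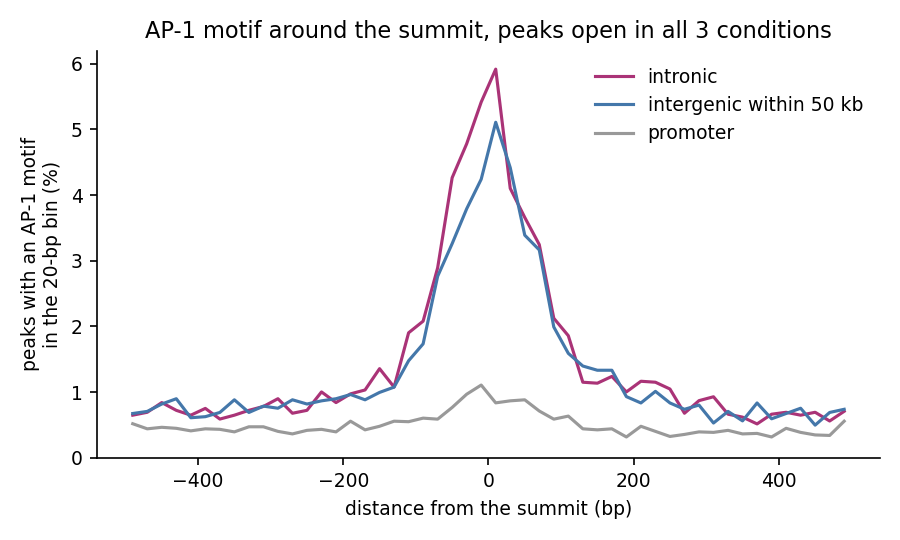
Percent of peaks with an AP-1 motif in 20 bp bins (vertical axis) by distance from the summit in bp (horizontal axis) for intronic peaks, intergenic peaks within 50 kb of a start site and promoter peaks, all present in the 3 conditions. The intronic curve reaches 5.92% beside the summit and 0.65% at its left edge, while the promoter curve stays low throughout.

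Several other motifs were also more frequent at intronic summits than in the flanks. The GC-box GGGCGG of SP and KLF factors was in 9.13% of intronic peaks, 3.05% of their flanks and 54.3% of promoter peaks, and the NRF1 pattern was in none of the intronic peaks. The TEAD core GGAATG was in 17.5% of intronic peaks against 10.7% of their flanks, the SOX core ACAATG in 15.3% against 10.7%, and the E-box CAGCTG in 16.5% against 9.18%. TGTGGT, the RUNX core, was in 17.5% against 15.8% of flanks, and CCAAT in 21.7% against 24.6%. The HIF core ACGTG, which the E-box CACGTG contains, was in 10.0% of intronic peaks and 9.82% of flanks, and GCGTG in 14.4% and 10.3%. The pattern of CTCF, which holds chromatin loops, was in 2.17% of intronic peaks and 5.18% of intronic peaks not present in all conditions. All patterns were searched on both strands.

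The 147 intronic peaks with a CTCF pattern were lower than the others in every library, by -0.43 to -0.76 in median log2 pileup. Those with TEAD were 0.09 higher than those without in both normoxic libraries, but -0.03 and -0.04 apart at 1% O2, then 0.12 and 0.09 at <0.1% O2. The GC-box went the other way, at 0.09 and 0.07 in normoxia, 0.23 and 0.28 at 1% O2, and 0.12 and 0.11 at <0.1% O2. For both motifs the 1% O2 libraries stood apart from the other 4. The sign for the GC-box, itself rich in GC, turned in normoxia with the GC trend removed, where peaks with it had medians of -0.26 and -0.22 and those without -0.09 and -0.08. On that scale the medians were 0.013 and -0.00049 against -0.015 and -0.026 at 1% O2, and -0.05 and -0.04 against 0.013 and -0.02 at <0.1% O2. Peaks with the HIF core ACGTG differed from those without it by at most 0.064 in any library. Those with GCGTG were higher in all 6, by 0.15 and 0.14 at 21% O2, by 0.21 and 0.22 at 1% O2, and by 0.14 and 0.15 at <0.1% O2.

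Peaks with AP-1 sites were no taller than others in normoxia and taller in hypoxia. The median log2 pileup of intronic peaks with a site less that of peaks without was -0.06 and -0.02 at 21% O2, then 0.12 and 0.16 at 1% O2, then 0.23 and 0.25 at <0.1% O2. The conditions did not overlap, and replicates differed by at most 0.044, while the exact permutation test of 2 against 2 cannot go below p = 0.333. With the GC trend removed the values were -0.01 and 0.02, then 0.15 and 0.21, and then 0.23 and 0.28. Within each quartile of GC content both <0.1% O2 values lay above both 21% O2 values, the former from 0.12 to 0.35 and the latter from -0.15 to 0.15. For peaks with 2 or more sites the difference was -0.09 and -0.02, then 0.16 and 0.24, and then 0.35 and 0.38, so a further site went with a larger difference.

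**Figure D5:**
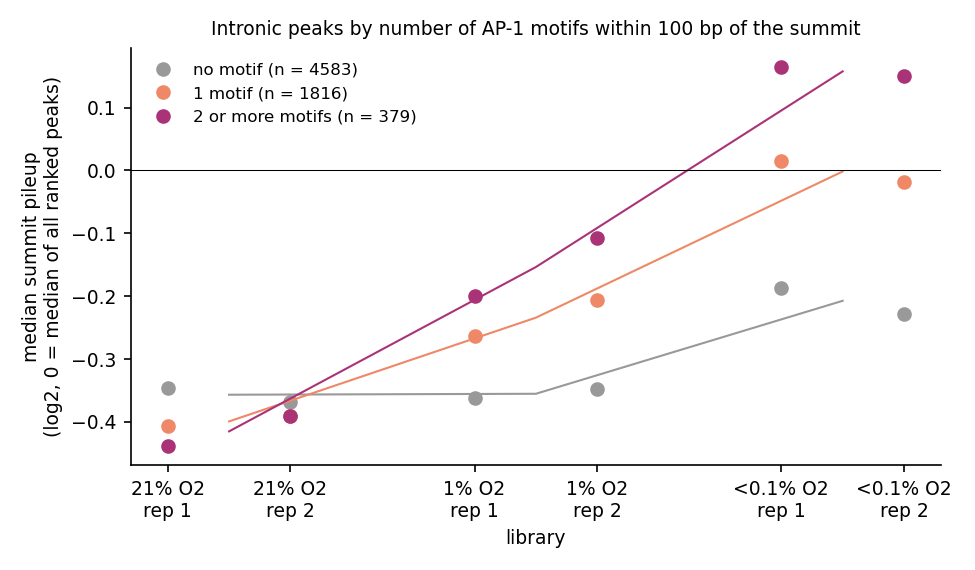
Median centred log2 summit pileup (vertical axis, 0 is the median ranked peak of each library) of intronic peaks with no AP-1 motif, 1 motif or 2 or more within 100 bp of the summit, 1 point per library, with lines joining the condition means. At 21% O2 the groups lie between -0.44 and -0.35, and at <0.1% O2 the group with 2 or more motifs is at 0.17 and 0.15 and the group without at -0.19 and -0.23.

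Counted by peak, the median change at <0.1% O2 was 0.09 for the 4583 intronic peaks without a site (-0.05 with the GC trend removed). It was 0.35 for the 1816 with 1 site and 0.48 for the 379 with 2 or more (0.17 and 0.30 with the GC trend removed). Of those with a site 701 (31.9%) were higher and 32 (1.46%) lower, against 724 (15.8%) and 303 (6.61%) of those without, and of those with 2 or more sites 159 (42.0%) were higher and 2 lower. At 1% O2, 351 with a site (16.0%) were higher and 124 (5.65%) lower, against 412 (8.99%) and 619 (13.5%) without. Between the hypoxic levels the higher shares were closer, at 12.3% and 10.1%, and with the GC trend removed a site was in 29.7% of peaks higher between these levels and 32.7% of those not called. Read the other way, a site was in 49.2% of peaks higher at <0.1% O2, 9.55% of those lower and 29.1% of those not called, and with the GC trend removed in 48.4%, 12.9% and 32.0%. The 1833 peaks with TGACTCA or TGAGTCA had a median change of 0.39 and the 362 with only TGAATCA or TGATTCA 0.29. The same contrast was seen outside introns, since promoter peaks with a site changed by a median of 0.17 and those without by -0.22, and intergenic peaks by 0.36 and 0.08.

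Called peaks differed in other motifs as well. The TEAD core was in 26.1% of intronic peaks lower at 1% O2 and 11.3% of those higher, and in 31.9% of those higher at <0.1% than at 1% O2. In this last group the median GC content was 44.1%, against 48.7% in peaks not called, and with the GC trend removed TEAD was in 40.7% of the 209 peaks then called. The E-box CACGTG was in 8.36% of intronic peaks lower at <0.1% O2 and 2.74% of those higher, and with the GC trend removed in 5.40% and 2.37%. Peaks lower at 1% O2 had a median GC content of 46.0% and those higher 50.5%. None of these shares was tested against the others.

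The 6 peaks with paired AP-1 sites shown above rose at <0.1% O2 as they were chosen to. The *Gsg1l* peak, in intron 5 of a gene for an auxiliary subunit of AMPA receptors, had pileups of 26 and 32 at 21% O2, then 108 and 99 at 1% O2, then 138 and 118 at <0.1% O2. *Galnt7*, a glycosyltransferase gene, had 45 and 42, then 150 and 127, and then 166 and 150 in intron 1. *Kcnk5*, a potassium channel gene, had 44 and 54, then 84 and 87, and then 169 and 156 in intron 1. The last differed in rising mainly at <0.1% O2, with a log2 change of 0.25 ± 0.15 at 1% O2 and 1.37 ± 0.15 at <0.1% O2. *Fnbp1*, a membrane-bending F-BAR protein gene, had 23 and 23, then 88 and 60, and then 71 and 79 in intron 11. *Shld2*, a subunit of the shieldin complex of DNA repair, had 24 and 36, then 91 and 85, and then 103 and 86 in intron 2. *Depdc5*, a subunit of the GATOR1 complex that restrains mTORC1, had 32 and 50, then 111 and 125, and then 128 and 117 in intron 25. Both <0.1% O2 libraries lay above both normoxic ones in all 6 genes because the choice required it. On the scale of fold over local background *Galnt7*, *Kcnk5* and *Depdc5* were not called (0.45, 0.13 and 0.50).

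Genes of 8 functional lists were then read for their intronic peaks, beside the 21.0% higher and 4.94% lower at <0.1% O2 and the 11.3% and 10.96% at 1% O2 over all intronic peaks. Among 60 HIF target and HIF pathway genes, 15 held 23 intronic peaks, of which 5 were higher and none lower at <0.1% O2, with a median change of 0.27 beside 0.18 over all intronic peaks. The share that was higher was close to that of all intronic peaks, and 4 were higher and 1 lower at 1% O2. The *Egln3* peak in intron 1 (the gene of prolyl hydroxylase PHD3, chr12:54191813-54192469) had pileups of 31 and 35 at 21% O2, then 136 and 120 at 1% O2, then 152 and 92 at <0.1% O2. Every hypoxic library lay above both normoxic ones, and the change at <0.1% O2 was 1.48 ± 0.16 (limma adjusted p = 3.6e-09), or 0.57 and not called as fold over local background. This summit window held both an ACGTG core and an NFI pattern. The *Hk2* peak in intron 1 (a hexokinase gene of glycolysis, chr6:82760870-82761468) had pileups of 18 and 20, then 34 and 42, and then 67 and 47 (1.2 ± 0.23). *Hk2* was called at <0.1% O2 and not at 1% O2 (0.44 ± 0.23), and it was called between the hypoxic levels (0.76 ± 0.23, but 0.15 as fold). The *Hk1* peak in intron 4 (the related hexokinase, chr10:62320278-62321189) had 123 and 193, then 497 and 413, and then 396 and 379 (0.96 ± 0.10). As fold over local background the *Hk1* value was -0.01, so its call and its direction rested on the pileup scale.

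In the AP-1 family list, 5 of 20 genes held 14 intronic peaks, of which 3 were higher and none lower at <0.1% O2 (median 0.28), again a share close to that of all intronic peaks. At 1% O2, 2 were higher and none lower. The *Bach2* peak in intron 3 (a repressor that pairs with small Maf proteins, chr4:32465681-32466556) had pileups of 75 and 98 at 21% O2, then 271 and 247 at 1% O2, then 258 and 238 at <0.1% O2 (1.16 ± 0.11). The *Atf2* peak in intron 4 (a bZIP partner of Jun, chr2:73860048-73860584) had 51 and 60, then 118 and 126, and then 137 and 147 (0.99 ± 0.15). The *Atf7* peak in intron 2 (also host as *Gm28047*, chr15:102572038-102572427) had 30 and 35, then 53 and 54, and then 74 and 68 (0.76 ± 0.19). *Bach2* was called at 1% O2 as well (1.04 ± 0.11, but 0.15 as fold), *Atf2* and *Atf7* were not, and no difference between the hypoxic levels was called for any of them. None of the 3 was called as fold over local background (0.24, 0.27 and 0.55), and the *Atf7* call was also lost with the GC trend removed (0.51).

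Identity genes of glia and glioma moved both ways. In this list 17 of 32 genes held 77 intronic peaks, of which 7 were higher and 13 lower at 1% O2, and 9 higher and 7 lower at <0.1% O2 (median 0.01). The *Tcf7l1* peak in intron 3 (a repressor of the Wnt pathway, chr6:72660191-72660820) had pileups of 16 and 23 at 21% O2, then 72 and 58 at 1% O2, then 61 and 57 at <0.1% O2 (1.25 ± 0.21). The *Nfia* peak in intron 3 (a gliogenic transcription factor, chr4:97969923-97970486) had 40 and 43, then 25 and 29, and then 30 and 23 (-1.03 ± 0.24). The *Nfia* peak fell in raw pileup in all 4 hypoxic libraries. The *Meis1* peak in intron 8 (a homeobox gene, chr11:18927278-18927929) had 19 and 32, then 72 and 59, and then 68 and 50 (0.87 ± 0.20), a call that was lost with the GC trend removed (0.56) and as fold (0.53).

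Genes of Hippo signaling and focal adhesion held 73 intronic peaks in 25 of 38 genes, with 6 higher and 11 lower at 1% O2 and 6 higher and 4 lower at <0.1% O2 (median 0.03). The *Tead1* peak in intron 1 (the DNA-binding partner of YAP, chr7:112710552-112711110) had pileups of 26 and 26 at 21% O2, then 79 and 90 at 1% O2, then 73 and 69 at <0.1% O2 (1.08 ± 0.19). The *Nedd9* peak in intron 2 (an adhesion scaffold gene, chr13:41408011-41408830) had 43 and 52, then 51 and 54, and then 34 and 28 (-0.98 ± 0.21). The *Itgav* peak in intron 2 (the integrin αV gene, chr2:83740500-83740958), where *Gm13684* overlaps, had 61 and 69, then 45 and 51, and then 42 and 43 (-0.98 ± 0.20). *Itgav* was called lower at 1% O2 as well (-0.996 ± 0.20, but -0.39 as fold over local background), and *Nedd9* was not. The *Nedd9* promoter peak had a change of 0.41 ± 0.12 at <0.1% O2, short of the minimum change.

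In the TGF-beta and BMP list, 13 of 26 genes held 28 intronic peaks, with 3 higher and 2 lower at <0.1% O2 (median 0.24) and 5 higher and 3 lower at 1% O2. The *Ltbp2* peak in intron 2 (a latent TGF-beta binding protein family gene, chr12:84857846-84859030) had pileups of 93 and 119 at 21% O2, then 316 and 277 at 1% O2, then 390 and 308 at <0.1% O2 (1.35 ± 0.10). The *Tgfb2* peak in intron 6 (the ligand TGF-β2, chr1:186627185-186628200) had 274 and 359, then 199 and 202, and then 234 and 180 (-0.98 ± 0.10). The *Smad3* peak in intron 1 (a signal transducer of the pathway, chr9:63747587-63748251) had 41 and 43, then 81 and 82, and then 93 and 91 (0.76 ± 0.17). Ligand and transducer thus went in opposite directions on the centred scale, and none of the 3 was called as fold over local background (0.34, -0.05 and 0.44). The promoter peak of *Tgfb2* was also lower at <0.1% O2 (-0.86 ± 0.12).

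Receptor tyrosine kinase and MAPK genes held 71 intronic peaks in 16 of 31 genes, with 15 higher and 6 lower at <0.1% O2 (median 0.06) and 10 higher and 7 lower at 1% O2 (median -0.06), and 38 of the 71 lay in the long model of *Fgfr2*. The *Mapk14* peak in intron 1 (the p38α kinase gene, chr17:28697958-28698681) had centred log2 pileups of -0.57 and -0.80 at 21% O2, then -0.05 and -0.14 at 1% O2, then 0.56 and 0.30 at <0.1% O2 (1.12 ± 0.16). The *Map3k5* peak in intron 18 (the stress kinase ASK1, chr10:20104409-20105149) had 42 and 63, then 142 and 152, and then 152 and 125 (1.05 ± 0.14). Both windows held an AP-1 site. A peak in *Fgfr2* that also lies in *Lhpp* (chr7:132702266-132702940) had 41 and 61, then 53 and 37, and then 36 and 26 (-1.08 ± 0.21). As fold over local background *Map3k5* stayed called, whereas *Mapk14* (0.27) and the *Fgfr2* peak (-0.52) did not.

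Chromatin regulators held 30 intronic peaks in 14 of 37 genes. None was higher and 4 were lower at 1% O2, and 7 were higher and 1 lower at <0.1% O2 (median 0.26), the lower one being the *Dnmt3a* peak above. The *Crebbp* peak in intron 2 (a histone acetyltransferase gene, chr16:4160640-4161166) had pileups of 22 and 21 at 21% O2, then 51 and 39 at 1% O2, then 56 and 55 at <0.1% O2 (1.00 ± 0.22). The *Kmt2e* peak in intron 2 (a gene of the trithorax-like SET domain family, chr5:23461668-23462276) had 33 and 31, then 74 and 61, and then 86 and 70 (0.91 ± 0.19). The *Kmt2e* call was lost with the GC trend removed (0.54) and as fold (0.24), and that of *Crebbp* was kept in both (0.76 and 0.70).

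Axon guidance and adhesion genes held 45 intronic peaks in 17 of 31 genes, with 1 higher and 4 lower at 1% O2, and 8 higher and 2 lower at <0.1% O2 (median 0.15). The *Nrp2* peak in intron 2 (a co-receptor of semaphorins and VEGF, chr1:62721714-62722285) had pileups of 55 and 75 at 21% O2, then 154 and 127 at 1% O2, then 168 and 134 at <0.1% O2 (0.86 ± 0.13). The *Ncam1* peak in intron 1 (a neural cell adhesion gene, chr9:49744105-49744982) had 76 and 124, then 168 and 151, and then 242 and 196 (0.80 ± 0.12). The *Slit3* peak in intron 9 (a repulsive guidance ligand, chr11:35586994-35587663) had 86 and 137, then 230 and 234, and then 243 and 232 (0.76 ± 0.12). Of these, *Nrp2* stayed called as fold over local background (0.73), while *Ncam1* (0.22) and *Slit3* (0.18) did not, and the *Ncam1* call was also lost with the GC trend removed (0.53). Over the 8 lists, AP-1 sites were in 21.4% (AP-1 family) to 40.8% (receptor tyrosine kinase) of the intronic peaks, around the 32.4% of all of them.

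Intronic peaks were spread over many genes rather than gathered in a few. Of the 3548 host genes, 2174 held 1 peak and 234 held 5 or more, with 1678 peaks in all. The largest counts came from long annotated models, since *Gm20388* (81 peaks) spans 4435 kb with 71 other protein-coding genes inside and *Fgfr2* (38 peaks) spans 2961 kb with 29 inside. Among the other genes with many peaks, the synaptic genes *Dlgap1* and *Syn3* held 14 each. In *Syn3*, 5 of 14 were higher and none lower at <0.1% O2 (median 0.29), and in *Dlgap1* 1 was higher and 1 lower (median -0.0014). Peaks of the same gene thus did not all move alike.

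Sharing a host gene went with only slightly more similar changes. In the 234 genes with 5 or more intronic peaks, the SD of the log2 change within a gene was 0.47 at <0.1% O2, beside 0.51 over all intronic peaks, and it was 0.47 beside 0.51 at 1% O2 and 0.32 beside 0.34 between the hypoxic levels. Of the 1374 genes with 2 or more intronic peaks, 618 had one that was higher at <0.1% O2, 195 had one that was lower and 68 had both. At 1% O2, 376 had one that was higher, somewhat more had one that was lower, and 70 had both.

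The promoters of host genes were only loosely related to their introns in how they changed. For 2347 host genes with a ranked promoter peak, holding 4851 intronic peaks, the median change at <0.1% O2 was 0.21 in introns and -0.21 at promoters. Across these genes the correlation between intronic and promoter change was r = 0.16 (Spearman rank correlation 0.17), given as a description over genes measured in the same libraries with different GC content. Of 1026 intronic peaks higher at <0.1% O2, the host promoter was higher for 47 (4.58%) and lower for 165 (16.1%), beside 4.53% and 19.5% of all ranked promoter peaks. Of 242 intronic peaks lower at <0.1% O2, the host promoter was higher for 2 and lower for 64 (26.4%). At 1% O2 the correlation was r = 0.22. The host promoter was then higher for 6.18% of the 534 higher intronic peaks and lower for 12.9% of the 559 lower ones. Of all ranked promoter peaks 3.92% were higher and 7.29% lower at 1% O2. Between the hypoxic levels the correlation was r = 0.025. Of the 555 intronic peaks higher there, the host promoter was higher for none and lower for 26 (4.68%). The shares of all ranked promoter peaks were 1.35% and 4.77%. *Zfat* was an example of opposite moves, since its promoter peak (chr15:68257975-68259226) had 287 and 377 at 21% O2, then 380 and 346 at 1% O2, then 279 and 245 at <0.1% O2, a change of -0.70 ± 0.10 beside 2.76 in its intron. *Cmip* had -0.85 ± 0.13 at its promoter beside 2.06 in its intron. At *Mapk14* both rose, the promoter by 0.61 ± 0.12, and at *Itgav* both fell, the promoter by -0.89 ± 0.12. The promoters of *Egln3*, *Hk1* and *Hk2* were not called at <0.1% O2, with changes of 0.32 ± 0.17, 0.16 ± 0.10 and -0.03 ± 0.10, and that of *Egln3* was called at 1% O2 (0.66 ± 0.17).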

How the data were processed

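ATACseq was measured in GL261 cells, 2 libraries per condition. The authors trimmed reads with Trimmomatic, aligned them to mm10 with Bowtie2 2.2.5, removed duplicates with Picard and called peaks in each library with MACS2 2.1.1.2 at a q-value of 0.001. Each deposited peak list gives a fold (a ratio of summit pileup to local background), a −log10 p and a −log10 q value. Read counts were not used here, so the authors' DESeq2 test was not repeated.

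From fold and −log10 p, the whole-number summit pileup and its background were recovered. Consensus peaks followed the authors' rule. Log2 pileups, centred on the median of 28432 peaks present in all 6 libraries, were fitted with limma 3.58.1 (R 4.3.3), 3 conditions in 1 model, with an intensity trend and Benjamini-Hochberg adjustment. The fit was also run on simulated data with known changes, and its outcome is not given here. Depth is given as genome coverage (2.16 to 3.35). Motifs were searched within 100 bp of the median summit of the libraries on both strands. Named peaks have a protein-coding host and are the largest called changes in each comparison with libraries that do not overlap, up to 3 per gene list, and the tallest. The peaks, gene lists and rules were chosen with earlier results of these data known. Alternatives were scaling, GC trend, fold, filters and left-out libraries.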

Additional observations from a re-analysis of the deposited data

How the results depend on the processing

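Values below are percentages of the intronic peaks higher and lower at 1% O2, at <0.1% O2 and between the hypoxic levels, in that order. With fold over local background they were 2.71 and 1.89, then 4.19 and 1.11, then 0.354 and 0.0295. Scaled to genome coverage they were 17.5 and 5.33, then 13.04 and 9.86, then 1.92 and 6.76. With no minimum change they were 19.2 and 20.8, then 34.4 and 11.6, then 23.8 and 2.26. Percentile ranks of fold gave 20.3 and 21.9 at 1% O2, 13.1 lower at <0.1% O2, and 25.8 and 7.89 between levels. With the GC trend removed they were 13.7 and 9.84 at <0.1% O2, with 3.08 higher between levels. Lower calls between levels were 1.34 with quantile normalization and 0.549 among the 2733 peaks above the median height. The medians were -0.031, 0.064 and 0.093 with fold, -0.057, 0.153 and 0.213 above the median height, 0.153, 0.018 and -0.143 with coverage, 0.028 and 0.033 in the last pair of comparisons with the GC trend removed, and 0.162 and 0.159 there with quantile normalization.

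Leaving out 1 library at a time, the higher and lower percentages ran from 10.2 to 12.4 and from 9.13 to 11.2 at 1% O2, from 19.7 to 22.1 and from 4.38 to 5.53 at <0.1% O2, and from 7.19 (without the first <0.1% O2 library) to 11.2 and from 0.472 (without the first 1% O2 library) to 0.929 between levels. The medians ran from -0.030 to 0.012, from 0.172 to 0.197 and from 0.172 to 0.211, and the first was above 0 without the first 1% O2 or the first 21% O2 library. The number of intronic peaks ran from 6795 to 7495. The share with an AP-1 site was 21.4% within 50 bp of the summit and 40.2% within 200 bp.

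Deviations of same-numbered replicates had correlations of -0.051, -0.013 and 0.0079, so they shared little across peaks. The labels do not say whether same-numbered libraries were prepared together. With a replicate block 759 and 739 peaks were higher and lower at 1% O2, 1419 and 334 at <0.1% O2, and 724 and 60 between levels. With the block and the GC trend removed, the percentages were 13.7 and 9.81 at <0.1% O2 (median 0.028), with 2.97 higher between levels (median 0.033).

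The sign of 6 named changes at <0.1% O2 turned. *Gm20388* was -0.129 with the GC trend removed, alone or with the block, -0.129 with fold, -0.038 with quantile normalization, -0.125 with coverage and -9.16 rank points. With fold and in rank points, *Pdzd2* was 0.031 and 2.43, *Tspan14* 0.123 and 8.77, *Ppm1h* 0.125 and 7.28, *Myo5b* 0.064 and 4.38, and *Hk1* -0.0082 and -1.25. *Myo5b* ran from -0.105 to 0.070 with 1 library left out, and was above 0 without the second 21% O2 (0.031) or the first <0.1% O2 library. Of 61 named changes, 21 lost their call and kept their sign with fold, *Hk1* lost both, and 4 lost and 2 gained a call with the GC trend removed. The cause was not tested. A summit pileup counts fragments at 1 base, which limits the precision of low peaks.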
